A study of Mus musculus with 24 samples.

Results

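The interferon response genes described here are 37 genes that interferons induce or that carry the interferon signal, chosen by gene name from the deposited table of gene counts. All 37 were among its 45706 genes, and 35 passed the filter on low counts that left 15667 genes for testing, with Mx1 and Oas2 below it. Poly(A) RNA of whole hypothalamus was sequenced from male mice with diet-induced obesity that were kept in pairs and weighed 53 g on average. Each mouse was injected daily over 5 days and killed 2 h after its last injection. The saline group received isotonic saline, the PSD-95i group received 25 mg/kg UCCB01-147, an inhibitor of PSD-95, and the PICK1i group received 56 mg/kg mPD5, an inhibitor of PICK1. Each group had 8 libraries by the labels. The protocol counts 6 saline mice, and the labels do not tie libraries to mice, so the p-values measure the spread between these libraries, part of which may be technical. All groups share the obesity and the daily injection, and the labels name no interferon or infection.

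Type I interferons bind a receptor made of Ifnar1 and Ifnar2, which activates the Janus kinases Jak1 and Tyk2. These kinases phosphorylate Stat2, which joins Irf9 in a complex that binds the interferon-stimulated response element (ISRE) in the promoters of induced genes, whereas the signal of interferon gamma acts on the gamma-activated site (GAS). The induced genes include sensors of foreign RNA, enzymes and binding proteins that block viral replication, large GTPases and the antigen presentation machinery, and in brain tissue many of them are detectable at rest in microglia and vessel cells.

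The libraries held 4762703 to 9228858 estimated counts each. Saline replicates 2 and 3 stood apart from the other 22 libraries. All 7 anterior pituitary markers summed to 62275 and 38726 CPM there (counts scaled to a common library size with TMM factors) and to at most 52.7 elsewhere, with Gh, the growth hormone gene, at 51984 and 32057 against at most 40.9. In these 2 libraries the summed markers of astrocytes (1389 and 1587 CPM), oligodendrocytes (2801 and 3735), neurons (2061 and 2293) and hypothalamic neurons (585 and 534) lay below every other library. The 7 hypothalamic neuron markers (Pmch, Hcrt, Avp, Oxt, Agrp, Sim1 and Nkx2-1) summed to 707 to 1271 CPM in the other 22. Mitochondrial transcripts took 13.5% to 16.6% of counts in PICK1i replicates 1, 2, 5 and 6, and 7.88% to 11.2% elsewhere. The members as a set are therefore compared with saline in all 24 libraries and in the 22 without saline replicates 2 and 3. For some single members only the log2 fold change against saline from all 24 libraries is printed. Such a value may differ without saline replicates 2 and 3. The plot of log2 fold changes against saline shows both fits for the members tested with 24 libraries. In bulk tissue, fewer cells of a type and less RNA per cell cannot be told apart.

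RefSeq promoters on GRCm38.p6, from 250 bases before to 50 after the transcription start, were matched by symbol for 28 of the 37 members. Rtp4, Oas2, Mx2, Parp9, Usp18, Dhx58, Ifi27, Mx1 and Parp14 had no entry. The ISRE core (GAAA, any 2 bases, GAAA), searched on both strands, was present in 16 of the 28 members (57.1%), against 3.44% of all 32851 promoters of the same length and 3.99% of the 27025 genes they belong to. The GAS letters TTCNNNGAA, the same on both strands, were present in 10 of 28 members (35.7%), against 8.30% of promoters and 9.55% of genes. A total of 5 members held both (Oas1a, Bst2, Ifitm3, Gbp7 and Igtp), with the matches overlapping in Bst2 and Ifitm3, and 7 held neither (Irf9, Irf7, Trim25, Oasl2, Tap1, Xaf1 and Ifi44). The matches to the ISRE core began between 222 bases before and 32 bases after the start, with a median of 59 bases before it. A match is a stretch of letters and was not measured as a binding site.

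The stretches below show the ISRE core of some members whose levels are described in full or that mark its classical targets. Every match that lies whole within a stretch is in capitals, and the stretch of Irf1 shows its GAS letters in capitals. Each is written along the strand of its gene, so a match on the other strand reads as the reverse complement of the core.
Isg15 chr4:156200862-156200921 (-): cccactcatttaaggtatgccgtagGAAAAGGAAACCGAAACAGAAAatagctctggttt
Ifit1 chr19:34640760-34640819 (+): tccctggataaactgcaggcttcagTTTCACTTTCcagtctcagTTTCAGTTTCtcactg
Ifit3 chr19:34583348-34583407 (+): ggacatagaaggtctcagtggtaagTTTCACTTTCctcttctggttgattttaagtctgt
Rsad2 chr12:26456538-26456597 (-): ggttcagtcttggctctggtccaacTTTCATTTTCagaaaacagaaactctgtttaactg
Stat2 chr10:128270251-128270310 (+): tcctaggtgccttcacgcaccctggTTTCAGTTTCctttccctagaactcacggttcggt
Gbp7 chr3:142530258-142530317 (+): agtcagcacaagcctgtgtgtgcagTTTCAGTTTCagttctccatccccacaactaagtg
Gbp3 chr3:142559974-142560033 (+): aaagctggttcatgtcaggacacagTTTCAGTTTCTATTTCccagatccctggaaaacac
Irgm1 chr11:48871421-48871475 (-): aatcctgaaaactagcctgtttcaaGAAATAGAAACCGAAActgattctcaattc
B2m chr2:122147523-122147582 (+): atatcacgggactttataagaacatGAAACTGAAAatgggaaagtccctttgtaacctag
Ifih1 chr2:62646206-62646233 (-): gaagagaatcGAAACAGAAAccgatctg
Irf1 chr11:53769899-53769957 (+): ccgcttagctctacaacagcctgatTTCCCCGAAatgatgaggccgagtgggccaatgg
The Isg15 stretch holds 3 overlapping matches in a row, Ifit1 holds 2 separate ones, and Gbp3 and Irgm1 hold 2 overlapping ones each. Ifit3 has a further match that begins 122 bases before the start, at the last base printed, so it is not in capitals. The match of Ifih1 lies 32 bases past the transcription start, so only a short stretch around it is given.

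Levels between genes were compared per length, as TPM (transcript abundance corrected for length and scaled to a common total) over the 22 libraries, with the SD over libraries. B2m, the light chain of class I molecules, was the most abundant member at 289.9 ± 44.4 TPM, followed by Ifi27, a classical target of interferon alpha, at 68.3 ± 11.8, and Ifitm3, which blocks viral fusion, at 35.2 ± 13.04. Ifit3 (30.9 ± 7.69 TPM) and the receptor chains Ifnar1 (23.3 ± 3.497) and Ifnar2 (20.5 ± 1.91) came next, and Ifitm3 and Ifit3 as well as the 2 receptor chains lay within 1 SD of each other. Irf1, Bst2, Irf9 and Stat2 had means between 13.8 and 16.1 TPM. The sensors were lower, with Ddx58 (RIG-I) at 4.77 ± 1.22, Ifih1 (MDA5) at 3.39 ± 0.802 and Dhx58 (LGP2) at 2.32 ± 1.06 TPM. At the bottom stood Ifi44 (0.765 ± 0.412), Oas2 (0.513 ± 0.308) and Mx1 (0.245 ± 0.182 TPM), the last with at most 8 counts in any library. The Ifit, Gbp, Oas, Mx and immunity-related GTPase genes have close relatives, so their split of shared reads is an estimate of the counting tool.

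**Figure D1:**
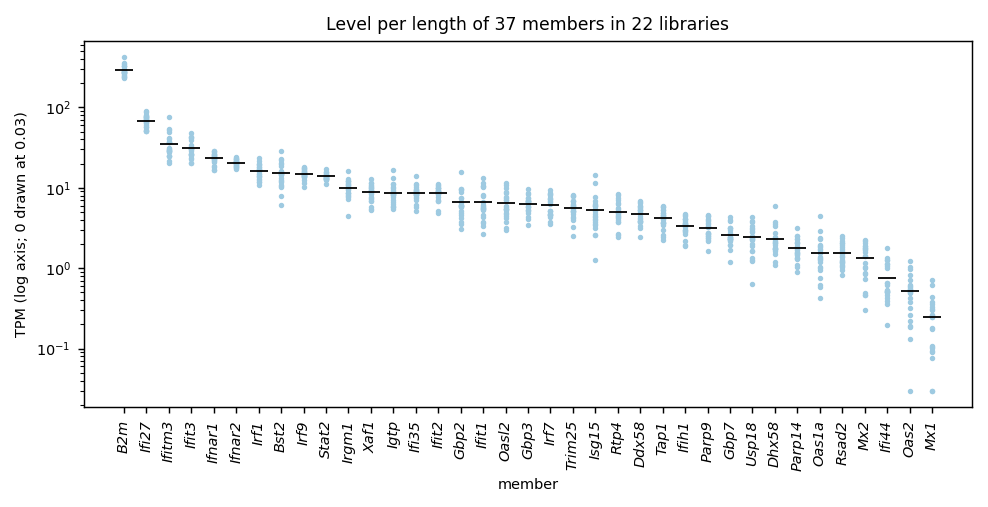
Level per length (TPM, log axis) of the 37 members in the 22 libraries without saline replicates 2 and 3; each point is a library and each bar the mean. B2m is the highest, at a mean of 289.9 TPM, and Mx1 the lowest, at 0.245.

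Many members were high in saline replicates 2 and 3. Both libraries lay above all 22 others for 11 of the 35 tested members (31.4%), against 12.8% of all 15667 tested genes (2002). These were Irf1, Ifih1, Trim25, Oasl2, Gbp3, Gbp7, Parp9, Parp14, B2m, Rtp4 and Ifi35. Parp14, a mono-ADP-ribosyltransferase, stood at 26.1 and 16.6 CPM there against at most 10.3 elsewhere, and Ifi35 at 24.3 and 20.1 against at most 9.06. The receptor chains, Ifit2, Ifit3 and Tap1 did not share this, as Ifit3 was at 26.3 and 24.3 CPM with a median of 27.4 in the other 6 saline libraries. Isg15 was at 3.47 CPM in one and 0.502 in the other. Both members of the ADP-ribosyltransferase group, 2 of 5 GTPases and 2 of 4 sensors and their regulators were among the 11, but only Oasl2 of the 7 tested antiviral effectors. The ISRE core was present in 4 of the 8 of these 11 that had a promoter entry, and in 12 of 20 among the other members. The part of pituitary tissue in these levels was not tested.

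The first comparison asks whether the members differed between the PSD-95 inhibitor and saline. With all 24 libraries, 0 of 35 members passed an adjusted p of 0.05 (edgeR quasi-likelihood test, Benjamini-Hochberg over all genes), and 0% of all tested genes did. DESeq2 and limma-voom also called 0 of 35 members and 0 of all genes. At an unadjusted p under 0.05 there were 10 of 35 members, all with lower values in PSD-95i. Of all genes, 11% had such a p in either direction and 7.62% were lower with it. They were B2m, Gbp3, Gbp7, Ifi35, Ifih1, Ifitm3, Igtp, Irf1, Irgm1 and Parp14. The log2 fold change was below 0 for 30 of 35 members, with a median of -0.25 against -0.003 for all genes. Without saline replicates 2 and 3, it was below 0 for 20 of 36 members with a median of -0.01, and 0 of 36 passed (0% of all genes). Only Igtp, lower in PSD-95i, then had an unadjusted p under 0.05, against 2.45% of all genes in either direction and 1.64% lower. Values with ± here and below are the log2 fold change and its standard error (SE).

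The second comparison asks the same of the inhibitor of PICK1. With all 24 libraries, 3 of 35 members fell, namely Ifih1, Gbp7 and Trim25, and none rose. Of all tested genes 9.15% passed in either direction and 4.27% fell, so the share among members (8.57%) was near the background of both directions. At an unadjusted p under 0.05 there were 14 of 35 members, all lower in PICK1i. Of all genes, 28.8% had such a p in either direction and 14.8% were lower with it. The log2 fold change was below 0 for 31 of 35 members, with a median of -0.35 against -0.01 for all genes. Without saline replicates 2 and 3, 0 of 36 passed, against 0.0316% of all genes. There 2 had an unadjusted p under 0.05 (Ifih1 and Rsad2, both lower in PICK1i), against 24.3% of all genes in either direction and 12.4% lower. In those 22 libraries 26 of 36 members were below 0, with a median of -0.10. No member passed without PICK1i replicates 1, 2, 5 and 6 (0 of all 16121 genes), or when only the 2 groups were fitted (0 of all 15287). Without those PICK1i libraries the log2 fold changes of Ifih1, Trim25 and Gbp7 were -0.68, -0.58 and -1.02. With only the 2 groups they were -0.81, -0.64 and -0.93, against -0.80, -0.63 and -0.92 with all 24 libraries. Without saline replicates 2 and 3 they were -0.44, -0.26 and -0.39. With 1 library left out, Ifih1 alone of the members passed without saline replicate 2, saline replicate 3, PICK1i replicate 5 or PICK1i replicate 6, where 404, 633, 299 and 539 of all genes passed, and 6 members passed without saline replicate 5 (the 3 with Igtp, Irf1 and Rsad2), where 1655 genes did. Both comparisons use the same saline libraries, so their values are not independent of each other.

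The third comparison sets the inhibitors against each other and does not use saline values except for the estimate of the spread. With 24 libraries 0 of 35 members passed (0% of all genes), and 0 had an unadjusted p under 0.05, against 24.2% of all genes. With 22 libraries 0 of 36 passed, against 7.64% of all genes. An unadjusted p under 0.05 was found for 3 (Ifih1, Rsad2 and Trim25, all higher in PSD-95i), against 28.9% of all genes in either direction and 14.4% higher. With 24 libraries limma-voom called 0 of 35 members and 429 of 15667 genes, and DESeq2 0 of 11 members and 1359 of 9896 genes, the other 24 members having no adjusted p from DESeq2. The median log2 fold change of PSD-95i against PICK1i was 0.04 with 24 and 0.05 with 22 libraries, with 16 members below 0 in both. Without PICK1i replicates 1, 2, 5 and 6, only 6 of 36 members were below 0, with or without saline replicates 2 and 3. No member passed in those 2 fits (0 of all genes). The 4 sensors and their regulators were all above 0, by 0.07 to 0.31, and the 4 signal transducers and transcription factors all below 0, by -0.19 to -0.10, with 24 libraries. In 22 libraries Ifih1 was higher in PSD-95i by 0.26 ± 0.13 (adjusted p = 0.165), Trim25 by 0.31 ± 0.14 (0.149) and Rsad2 by 0.41 ± 0.20 (0.168), none past the threshold.

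**Figure D2:**
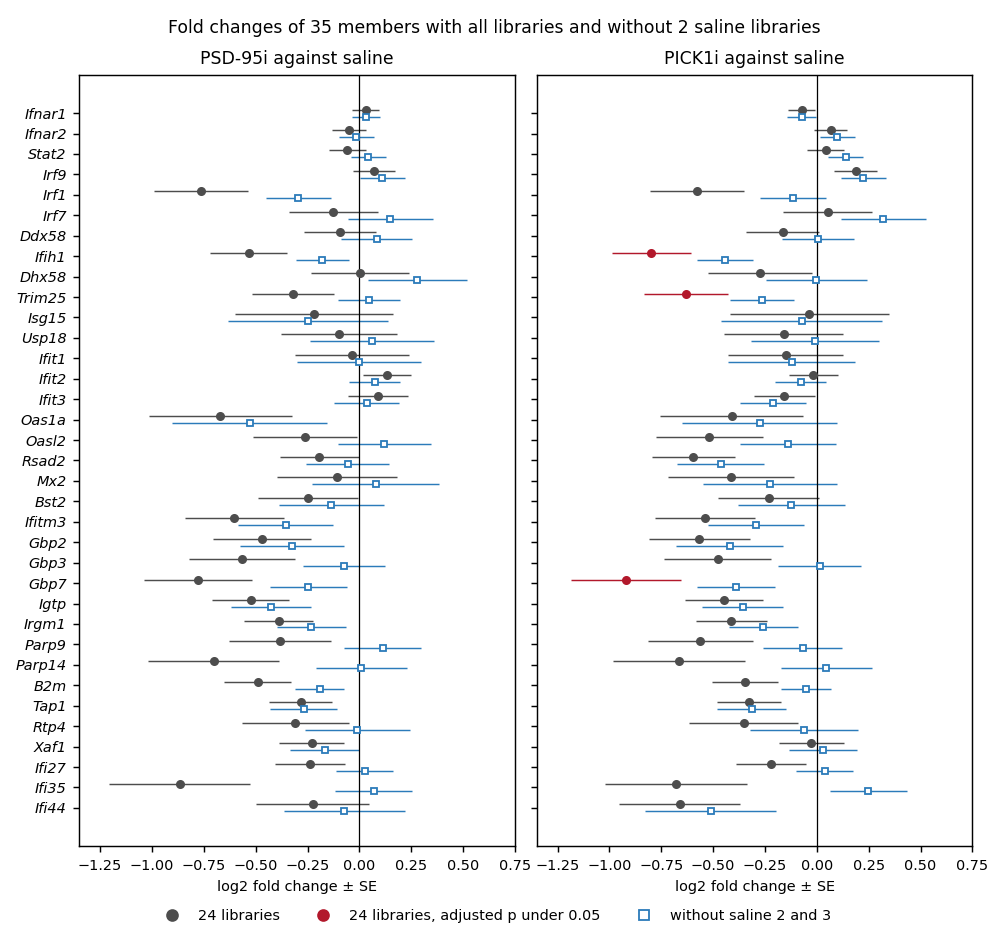
Log2 fold change with standard error of the 35 tested members, in the order of their roles, against saline with 24 libraries (circles) and without saline replicates 2 and 3 (squares). The 3 red circles are Ifih1, Trim25 and Gbp7 in PICK1i; most circles lie left of 0 and most squares lie nearer to it.

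The receptor chains varied least, with the highest of the 22 libraries 1.42 times the lowest for Ifnar1 and 1.54 times for Ifnar2. Gene positions here and below are those of GENCODE M21 on GRCm38, whose starts can differ from the RefSeq starts used for the promoters. Ifnar1, at chr16:91485238-91507441 (+), had a lowest, median and highest level of 33.6, 35.2 and 42.1 CPM in saline, 33.1, 36.9 and 42.3 in PSD-95i and 29.8, 35.7 and 39.9 in PICK1i. The 3 groups overlapped throughout, and neither saline replicate 2 nor 3 was the highest library. The log2 fold change of Ifnar1 was 0.03 ± 0.06 in PSD-95i and -0.07 ± 0.07 in PICK1i. Between the inhibitors it was 0.10 ± 0.07, the third smallest p of the members in that comparison (unadjusted p = 0.125, adjusted p = 0.338). Ifnar2, its neighbour on chromosome 16, had log2 fold changes of -0.05 ± 0.08 and 0.07 ± 0.08.

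Among the signal transducers and transcription factors, Stat2 and Irf9 are subunits of the ISRE-binding complex, and Stat2 was near 0 with 24 libraries. With 22 libraries, 3 of the 4 members of this role were above 0 against saline in each inhibitor group. Values of the 4 then ran from -0.11 to 0.32 in PICK1i and from -0.29 to 0.15 in PSD-95i, none past the threshold. Stat2, at chr10:128270559-128292849 (+), ranged over 28.3, 31.0 and 42.0 CPM (lowest, median, highest) in saline, 28.4, 30.9 and 36.9 in PSD-95i and 24.7, 34.6 and 40.1 in PICK1i. Its highest library was saline replicate 3, and the groups overlapped. Its log2 fold change was -0.06 ± 0.09 in PSD-95i and 0.04 ± 0.09 in PICK1i, and 0.19 ± 0.10 was the value of Irf9 in PICK1i (adjusted p = 0.224). Irf1, a factor that both kinds of interferon induce and that binds ISRE-like letters itself, is at chr11:53770014-53778374 (+). Its levels were 9.07, 16.2 and 38.3 CPM in saline, 9.50, 11.9 and 13.3 in PSD-95i and 9.42, 12.4 and 19.5 in PICK1i. Saline replicates 2 and 3, at 35.4 and 38.3 CPM, lay above all other libraries, and the other 6 saline libraries, at 9.07 to 18.6, overlapped both inhibitor groups. The log2 fold change of Irf1 was -0.76 ± 0.23 in PSD-95i, the smallest p of the members there (adjusted p = 0.342), and -0.58 ± 0.23 in PICK1i (adjusted p = 0.0950). Without saline replicates 2 and 3 it was -0.29 ± 0.16 and -0.11 ± 0.16. Irf7, the amplifier of type I interferon production, gave -0.13 ± 0.21 and 0.05 ± 0.22 with 24 libraries.

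The sensors and their regulators held 2 of the 3 members that fell in PICK1i. Ifih1 encodes MDA5, which detects long double-stranded RNA, and lies at chr2:62595798-62646255 (-). Its lowest, median and highest levels were 6.08, 8.21 and 18.1 CPM in saline, 5.32, 6.96 and 8.46 in PSD-95i and 4.21, 5.67 and 7.49 in PICK1i. Saline replicates 2 and 3 (18.1 and 15.2 CPM) were the highest of all, but the 6 other saline libraries, at 6.08 to 9.49, also sat mostly above PICK1i, at 4.21 to 7.49, with overlap. Ifih1 fell by 0.80 ± 0.19 on the log2 scale in PICK1i (adjusted p = 0.0197), and without saline replicates 2 and 3 the value was -0.44 ± 0.13 (adjusted p = 0.0741). In PSD-95i it was -0.53 ± 0.18 (adjusted p = 0.356), and -0.18 ± 0.13 in the 22 libraries.

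Trim25, the ubiquitin ligase that activates RIG-I, lies at chr11:88999376-89020293 (+). Its levels ran over 11.03, 16.4 and 35.5 CPM in saline, 10.3, 15.9 and 19.9 in PSD-95i and 7.76, 13.96 and 15.4 in PICK1i. The PICK1i group comprised 3 libraries at 7.76 to 9.72 CPM (replicates 4, 5 and 6) and 5 at 13.4 to 15.4, and the latter overlapped saline. Trim25 fell by 0.63 ± 0.20 in PICK1i (adjusted p = 0.0478), and without saline replicates 2 and 3 it was at -0.26 ± 0.15 (adjusted p = 0.288). In PSD-95i the values were -0.32 ± 0.20 with 24 libraries and 0.05 ± 0.15 with 22. The other sensors did not pass the test: Ddx58 was at -0.17 ± 0.18 and Dhx58, which modulates both sensors, at -0.27 ± 0.25 in PICK1i.

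Isg15, the ubiquitin-like modifier, and Usp18, the protease that removes it and restrains the receptor, had low levels and wide spreads. Usp18, at chr6:121245906-121270917 (+), was at 1.10, 2.55 and 3.47 CPM (lowest, median, highest) in saline, 1.52, 2.06 and 3.87 in PSD-95i and 0.659, 2.13 and 3.99 in PICK1i. The PICK1i libraries held both the lowest and the highest of all, and the groups overlapped. For Usp18 the log2 fold change was -0.10 ± 0.28 in PSD-95i and -0.16 ± 0.29 in PICK1i. Isg15 had 3 to 42 counts per library and gave -0.22 ± 0.38 and -0.04 ± 0.38, with standard errors above those of Ifih1.

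Of the 9 antiviral effectors that act on viral RNA or replication, 7 were tested with 24 libraries and 8 with 22. In these edgeR fits none passed in any comparison. Rsad2 passed in PICK1i against saline by DESeq2 (adjusted p = 0.0465), where 1991 of 15059 genes did. It also passed in 4 of 16 edgeR fits with 1 library left out, where 702 to 2757 genes did. Ifit3, which with Ifit1 and Ifit2 binds foreign RNA and blocks its translation, is at chr19:34583531-34588731 (+), in a cluster with Ifit1 and Ifit2. Its levels were 23.4, 26.3 and 37.7 CPM in saline, 22.9, 28.1 and 41.6 in PSD-95i and 18.2, 23.6 and 43.0 in PICK1i, with saline replicates 2 and 3 inside the range of the other saline libraries. Its log2 fold changes were 0.09 ± 0.14 in PSD-95i and -0.16 ± 0.15 in PICK1i. Rsad2 encodes viperin, which makes a chain-terminating nucleotide, and lies at chr12:26442746-26456452 (-). Its levels were 2.46, 3.85 and 5.19 CPM in saline, 2.30, 3.22 and 4.91 in PSD-95i and 1.81, 2.30 and 4.33 in PICK1i. In PICK1i 7 of the 8 libraries lay between 1.81 and 2.66 CPM, and replicate 1 at 4.33, and the groups overlapped. The log2 fold change was -0.59 ± 0.20 in PICK1i (adjusted p = 0.0577), -0.46 ± 0.21 without saline replicates 2 and 3 (adjusted p = 0.173), and 0.40 ± 0.20 for PSD-95i against PICK1i (adjusted p = 0.223). The remaining tested effectors (Ifit1, Ifit2, Oas1a, Oasl2 and Mx2) had values between -0.52 and -0.02 in PICK1i and between -0.67 and 0.13 in PSD-95i.

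**Figure D3:**
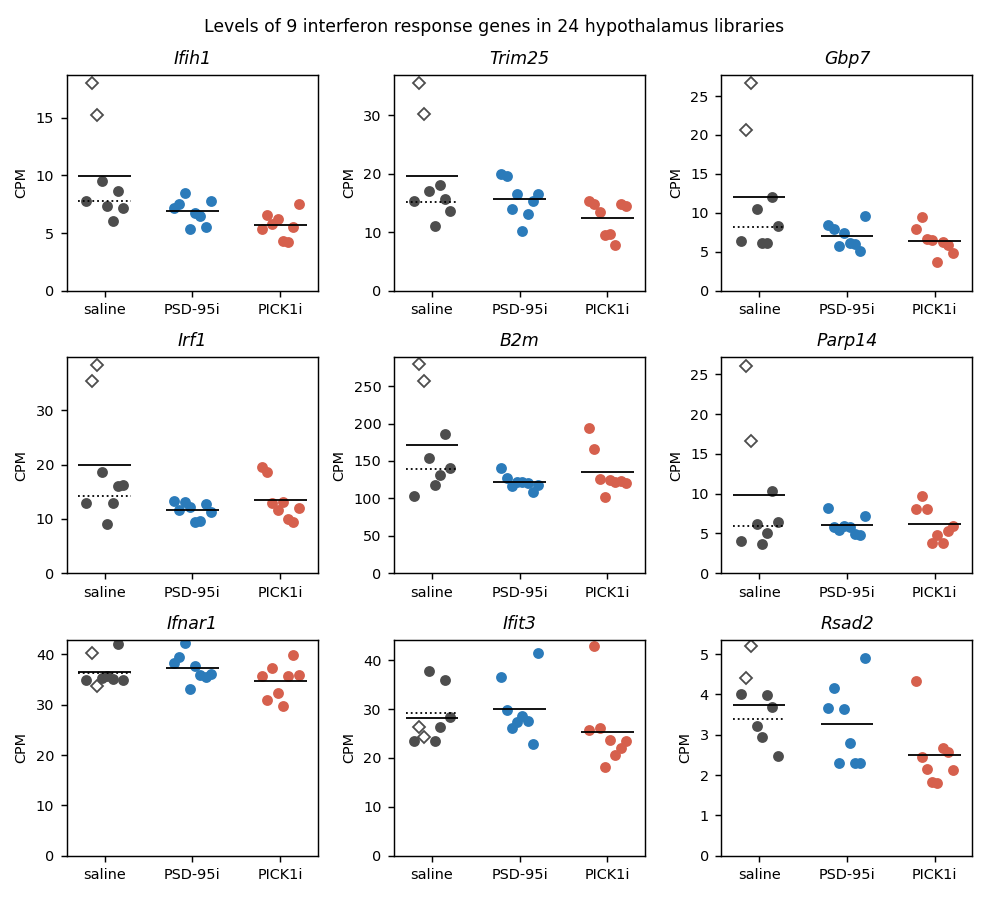
CPM of 9 members in every library, with the mean of each group as a solid line, the mean of 6 saline libraries as a dotted line and saline replicates 2 and 3 as open diamonds. The diamonds lie above all other points for Ifih1, Trim25, Gbp7, Irf1, B2m and Parp14, and inside the range of the others for Ifnar1 and Ifit3.

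Both membrane effectors had values below 0. Ifitm3, which hinders viral entry, is at chr7:141009586-141010770 (-), and its levels were 8.70, 15.3 and 32.4 CPM in saline, 9.51, 10.1 and 17.5 in PSD-95i and 7.47, 11.2 and 21.2 in PICK1i. The highest saline libraries were replicates 2 (32.4) and 7 (26.8), with pituitary marker sums of 62275 and 3.57 CPM. Its log2 fold change was -0.60 ± 0.24 in PSD-95i (adjusted p = 0.396) and -0.54 ± 0.24 in PICK1i (adjusted p = 0.140), and in 22 libraries -0.36 ± 0.23 and -0.29 ± 0.23. Bst2 (tetherin), which holds budding virus at the cell surface, gave -0.25 ± 0.24 and -0.23 ± 0.25 with 24 libraries.

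All 5 GTPases had values below 0 against saline in both inhibitor groups with 24 libraries, and 1 passed. Gbp7, a guanylate-binding protein of the chromosome 3 cluster at chr3:142530342-142550149 (+), had levels of 6.08, 9.37 and 26.6 CPM in saline, 5.08, 6.76 and 9.55 in PSD-95i and 3.63, 6.35 and 9.52 in PICK1i. Saline replicates 2 and 3, at 20.6 and 26.6 CPM, were the 2 highest, and the other 6, at 6.08 to 11.99, overlapped both inhibitor groups. Gbp7 fell by 0.92 ± 0.27 in PICK1i (adjusted p = 0.0336), and without saline replicates 2 and 3 its value was -0.39 ± 0.19 (adjusted p = 0.207). In PSD-95i it was -0.78 ± 0.26 with 24 libraries (adjusted p = 0.356) and -0.25 ± 0.19 with 22. Irgm1, a regulator of the immunity-related GTPases and of autophagy, is at chr11:48861968-48871683 (-). Its levels were 9.49, 14.5 and 21.1 CPM in saline, 8.36, 11.6 and 13.3 in PSD-95i and 5.76, 10.8 and 15.8 in PICK1i, and saline replicate 7 (18.7) lay between replicates 2 (21.1) and 3 (17.9). For Irgm1 the log2 fold change was -0.39 ± 0.17 in PSD-95i and -0.41 ± 0.17 in PICK1i, and in 22 libraries -0.23 ± 0.17 and -0.26 ± 0.17. Igtp, a related GTPase, had -0.43 ± 0.19 in PSD-95i with 22 libraries (unadjusted p = 0.0357), the one member under 0.05 there, and its adjusted p was 1.00.

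The ADP-ribosyltransferases Parp9 and Parp14, neighbours on chromosome 16, differed widely between the fits with and without saline replicates 2 and 3. Parp14, at chr16:35832874-35871544 (-), had levels of 3.68, 6.29 and 26.1 CPM in saline, 4.84, 5.81 and 8.18 in PSD-95i and 3.77, 5.62 and 9.67 in PICK1i. The 6 other saline libraries, at 3.68 to 10.3, covered the range of both inhibitor groups. Its log2 fold change was -0.70 ± 0.31 in PSD-95i and -0.66 ± 0.32 in PICK1i with 24 libraries, and 0.01 ± 0.22 and 0.05 ± 0.22 with 22. Parp9 went from -0.56 ± 0.25 to -0.07 ± 0.19 in PICK1i.

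For antigen presentation, B2m, at chr2:122147686-122153083 (+), is the best-measured member, with 552 to 2418 counts per library. Its levels were 103, 147 and 280.0 CPM in saline, 109, 121 and 141 in PSD-95i and 102, 123 and 194 in PICK1i. After saline replicates 2 and 3, the highest libraries were PICK1i replicate 1 (193.7 CPM), saline replicate 7 (185.6) and PICK1i replicate 2 (165.8), so the groups overlapped. The log2 fold change was -0.49 ± 0.16 in PSD-95i (adjusted p = 0.356) and -0.35 ± 0.16 in PICK1i (adjusted p = 0.155), and in 22 libraries -0.19 ± 0.12 and -0.05 ± 0.12. Tap1, a subunit of the peptide transporter, had values of -0.27 ± 0.16 and -0.31 ± 0.17 in 22 libraries, close to those of -0.28 ± 0.15 and -0.33 ± 0.16 in 24, and did not pass in either.

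Of the other induced genes, Ifi27, at chr12:103434211-103440239 (+), had levels of 18.9, 25.8 and 53.1 CPM in saline, 19.97, 26.3 and 31.2 in PSD-95i and 19.7, 22.3 and 40.2 in PICK1i. Saline replicate 2 was the highest library and PICK1i replicate 1 the next, at 40.2 CPM. Its log2 fold change was -0.24 ± 0.17 in PSD-95i and -0.22 ± 0.17 in PICK1i, and 0.03 ± 0.14 and 0.04 ± 0.14 in 22 libraries. Ifi35 showed the widest gap between the fits, from -0.68 ± 0.34 to 0.25 ± 0.19 in PICK1i and from -0.87 ± 0.34 to 0.07 ± 0.18 in PSD-95i. Ifi44, Rtp4 and Xaf1 had values between -0.66 and -0.03 in PICK1i, and none passed.

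Transcripts of the members were tested in the same way. Of 155 annotated transcripts, 61 from 33 members passed the filter. With 24 libraries 2 transcripts fell in PICK1i against saline, 1 of Ifih1 and 1 of Gbp7, while 2% of all 37955 tested transcripts passed. In PSD-95i against saline and between the inhibitors 0 member transcripts passed (0% and 0% of all transcripts). With 22 libraries no member transcript passed in any comparison, where 0%, 0% and 0% of all transcripts did. The Ifih1 transcript that fell is the coding one of 3616 bases that takes 43.3% of the gene's counts, with a log2 fold change of -0.86 ± 0.23 (adjusted p = 0.0437). The longer coding one of 5470 bases, with 34.4%, had -0.70 ± 0.23 (adjusted p = 0.0760). For Gbp7, 93.8% of counts were in 1 coding transcript, which fell by 0.95 ± 0.26 (adjusted p = 0.0491). Ifnar2 was split over 3 tested coding transcripts with 49.9%, 38.9% and 10.1% of its counts, the last and shortest of them (1099 bases), and none of these differed past the threshold in PICK1i or PSD-95i.

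The members also differed between libraries of the same group. As the median over 35 members of the log2 level relative to the mean of the 22 libraries, saline replicate 7 stood at 0.52 and replicate 4 at 0.32, PICK1i replicates 2 and 1 at 0.45 and 0.35, and PSD-95i replicates 8 and 1 at 0.23 and 0.22. The lowest were PICK1i replicates 4 (-0.43), 6 (-0.34) and 5 (-0.27) and saline replicate 5 (-0.34). The median over all genes was within 0.02 of 0 in every library. PSD-95i had the narrowest range, -0.20 to 0.23, against -0.43 to 0.45 in PICK1i and -0.34 to 0.52 in the 6 saline libraries, a description without a test. Saline replicates 2 and 3 were at 0.88 and 0.66.

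Different members led in different libraries. Saline replicate 7 was the highest of the 22 libraries for 11 of 35 members, among them Gbp2, Gbp7, Igtp, Irgm1, Ifitm3, Bst2, Parp9, Parp14 and Tap1. PICK1i replicate 2 was the highest for 10, among them Isg15, Usp18, Ifit1, Ifit2, Ifit3, Irf7, Irf9 and Stat2. PICK1i replicate 1 led for 6, namely B2m, Ifi27, Rtp4, Xaf1, Irf1 and Ifnar2. PICK1i replicates 4, 5 and 6 were the lowest for 8, 6 and 6 members. The share of all genes that each library led is not given here. By another measure, 4 of 35 members and 1.24% of all tested genes lay over 2-fold above their mean of the 22 in saline replicate 7. In PICK1i replicate 6, the library with the fewest counts (4762703), 0 members and 1.60% of all genes did. The values were 2 members and 0.817% in PICK1i replicate 2, and 0 members and 0.689% in PICK1i replicate 1. Ifit1, for example, was at 20.9 CPM in PICK1i replicate 2 and 4.21 in replicate 6 of the same group, with 7.38 as the group's median.

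**Figure D4:**
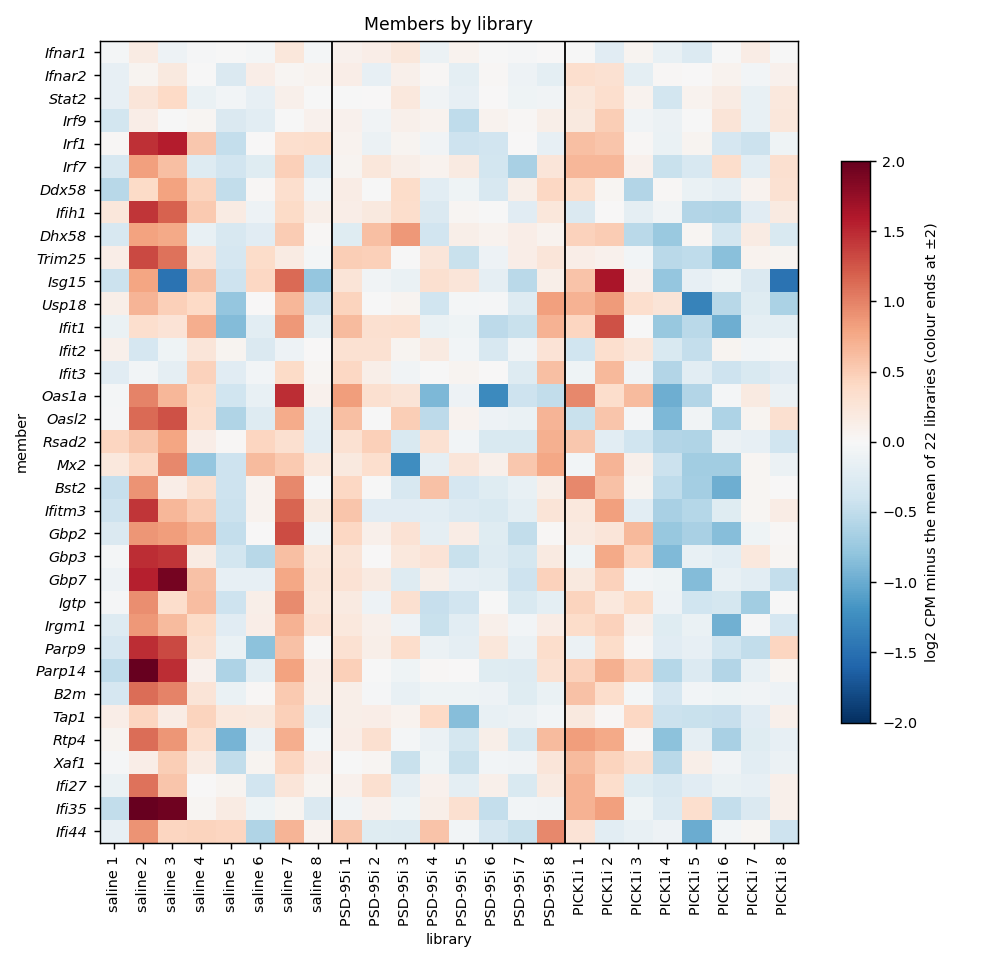
Log2 CPM of each tested member in each library minus the member's mean over the 22 libraries, in the order of roles, with colour ends at 2 and -2. Saline replicates 2 and 3 are red for Irf1, Gbp7, Parp14 and Ifi35 and pale for the receptor chains and Ifit3; saline replicate 7 and PICK1i replicate 2 are red over different rows.

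Marker sums of other cell types varied with the same libraries in part. The 7 leptomeningeal fibroblast markers summed to 330 CPM in saline replicate 7, 198 in PSD-95i replicate 1, 190 in PICK1i replicate 2 and 175 in saline replicate 4, and to 41.3 to 130 in the others of the 22. PICK1i replicate 1, where the members were also high, had 55.5. In saline replicates 2 and 3 the sum was 238 and 169. The 7 mural cell markers reached 394 CPM in saline replicate 7 and 187 to 266 elsewhere, and the 8 endothelial markers 306 there and 326 in PICK1i replicate 1, against 187 to 253 elsewhere. Microglial markers (10 genes) summed to 440 to 590 CPM in the 22 libraries and to 445 and 404 in saline replicates 2 and 3, where 11 members were highest. The 7 perivascular and blood myeloid markers summed to 22.2 CPM in saline replicate 7 and to 24.2 in PICK1i replicate 6, where the members were low, against 5.34 to 12.9 elsewhere. The 7 lymphocyte markers were highest in saline replicate 7, at 3.95 CPM against 0.242 to 2.26 elsewhere, and the 5 red blood cell markers in PICK1i replicate 6, at 1844 against 135 to 1052. Against saline with 24 libraries, 2 of 7 leptomeningeal, 1 of 7 mural, 1 of 8 endothelial, 1 of 5 tanycyte and both tested pituitary markers also fell in PICK1i, 2 of 6 neuronal, 1 of 6 oligodendrocyte and 1 of 8 endothelial ones rose, and 0 of 10 microglial ones passed; with 22 libraries 0 tested markers of the 14 lists passed against saline. The part of these cells in the members' values was not tested.

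**Figure D5:**
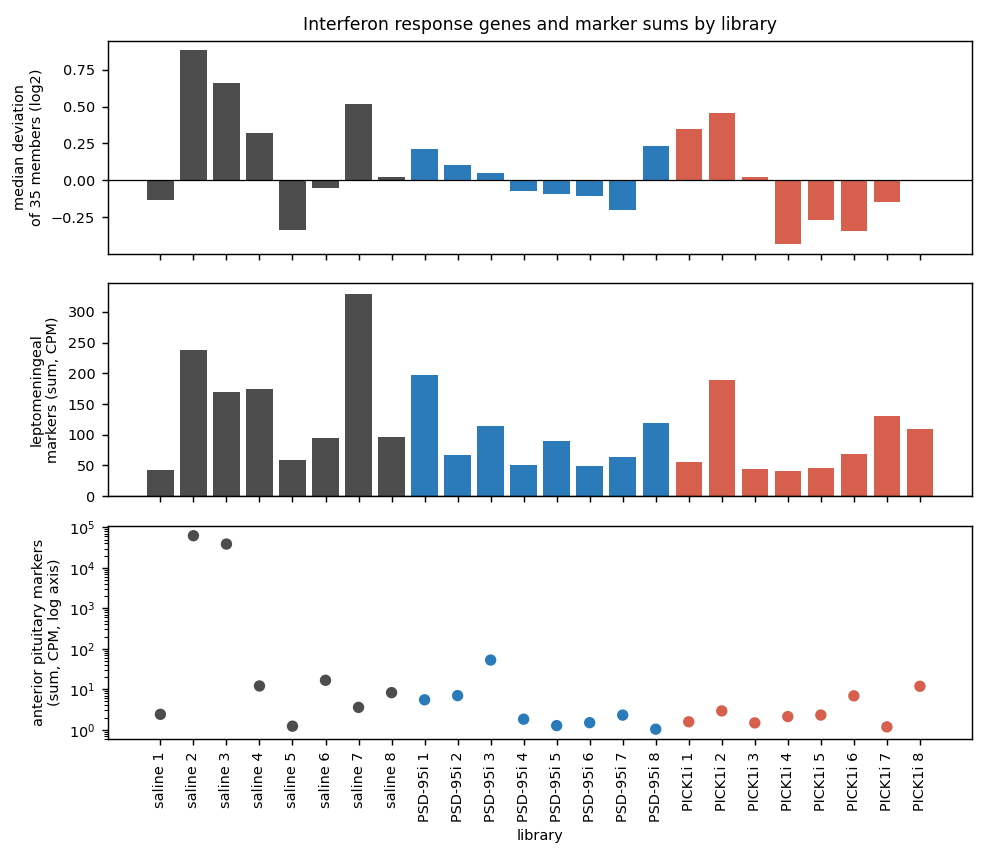
For each library, the median log2 deviation of the 35 members from the 22-library mean (top), the summed leptomeningeal markers in CPM (middle) and the summed anterior pituitary markers in CPM on a log axis (bottom); colours mark the groups. Saline 2 and 3 are highest in the top and bottom panels (0.88 and 0.66; 62275 and 38726 CPM), and saline 7 is highest in the middle (330 CPM).

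A wider list of 90 pathway genes, none of them a member, had 67 tested genes. In PSD-95i against saline 0 passed with 24 or 22 libraries. In PICK1i against saline with 24 libraries 11 fell and 0 rose, against the 9.15% and 4.27% of all genes given above, with a median of -0.28. Of the kinases and STATs, Jak1 fell by 0.29 ± 0.08 and Stat3 by 0.35 ± 0.09, whereas Tyk2 was at -0.04 ± 0.10 (adjusted p = 0.833). Of sensors and adaptors, Mavs, which relays the signal of RIG-I and MDA5, fell by 0.38 ± 0.12 and Eif2ak2 (PKR) by 0.58 ± 0.16. The effectors Oas1c (-0.86 ± 0.23), Isg20 (-2.29 ± 0.65), Uba7 (-1.04 ± 0.30), Parp10 (-1.28 ± 0.35), Dtx3l (-0.79 ± 0.19) and Lgals3bp (-0.35 ± 0.09) and the class I chaperone Tapbp (-0.62 ± 0.16) also fell. None of the 11 passed without saline replicates 2 and 3, where Isg20, for example, was at -0.13 ± 0.37 and Parp10 at -0.34 ± 0.17. The values of the rest of the 11 in that fit are not printed here. Of the 67 tested genes, 52 were below 0 there, with a median of -0.14 and a smallest adjusted p of 0.0631. An unadjusted p under 0.05 was found for 15 of the 67 in either direction, against 24.3% of all genes.

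Between the inhibitors, 0 of the 67 passed with 24 libraries and 5 with 22, against 7.64% of all genes. Jak1 (0.27 ± 0.07), Stat3 (0.29 ± 0.09) and Pias1, an inhibitor of STATs (0.19 ± 0.06), were higher in PSD-95i. Irf2 (-0.22 ± 0.06) and Irf3, the factor that switches on interferon genes (-0.29 ± 0.09), were lower. The ligand gene Ifnb1 had 0 counts in every library and Ifng at most a few, with means of 0.233, 0.101 and 0.128 CPM in saline, PSD-95i and PICK1i. Ifngr1, the ligand-binding chain of the interferon gamma receptor, was at -0.19 ± 0.09 in PICK1i and -0.13 ± 0.09 in PSD-95i, and did not pass.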

How the data were processed

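RNA of whole hypothalamus was sequenced in 24 libraries, 8 per group. The authors deposited estimated counts per gene and per transcript, for which Salmon, STAR, bcl2fastq 2.20.0 and the build GRCm38 are listed without their roles in the submitters' processing notes. No source used here gives the annotation release or the strand setting, so reads of overlapping genes on opposite strands may be mixed. Gene names came from the deposited table, and GENCODE M21 gave coordinates and transcript lengths.

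Estimated counts were rounded (94.3% of values were whole within 0.001). Genes passing filterByExpr (minimum count 10) were normalised by TMM and tested with edgeR 4.0.16 (quasi-likelihood F test, R 4.3.3) in 1 fit to all 24 libraries with group as the only factor (21 residual degrees of freedom). Benjamini-Hochberg adjustment ran over all genes tested. CPM used TMM-scaled totals, and TPM used transcript counts and lengths. The biological coefficient of variation was 14.4% with 24 and 11.5% with 22 libraries. No 2 replicates held identical values in 84 pairs compared, and each pair differed by more than counting noise. Alternatives covered left-out libraries, RLE size factors, filters, a replicate block, limma-voom (3.58.1) and DESeq2 (1.42.0).

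The members, the marker lists and the wider list were chosen with earlier results of these data known. Values in every group are given for members past the threshold in either fit, the 3 with the smallest p in each comparison and the member with the highest mean CPM in each role. Of the wider list, every gene past the threshold is named, and always Jak1, Tyk2, Ifngr1, Ifnb1 and Ifng; 1 further gene of that rule is not reported here.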

Additional observations from a re-analysis of the deposited data

Results flagged for a closer look

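Of 42 combinations of a fully described member and a group of 8 libraries, 4 had a highest library that stood far from the rest of its group (Dixon's criterion). For independent values with a normal spread, chance gives about 1 in 20. The combinations share libraries, so their number is not a test. The criterion uses the gap to the nearest library, so 2 high libraries together can escape it. Irf1 in saline replicates 2 and 3 (35.4 and 38.3 CPM) was not flagged. Stat2 was at 36.9 CPM in PSD-95i replicate 3, with the nearest library at 32.0. Ifit3 was at 43.0 CPM in PICK1i replicate 2, with the nearest at 26.2. Ifitm3 was at 21.2 CPM in the same library, with the nearest at 13.8. Rsad2 was at 4.33 CPM in PICK1i replicate 1, with the nearest at 2.66.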

How the results depend on the processing

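In PICK1i against saline the edgeR fit to 24 libraries called 3 of 35 members and 1434 of 15667 genes. It called 0 members without saline replicates 2 and 3 (5 genes), and 0 members and 0 genes without PICK1i replicates 1, 2, 5 and 6, without all 6 of these, with only the 2 groups fitted, and with those groups lacking saline replicates 2 and 3. Without PICK1i replicates 1, 2, 5 and 6, 34 of 36 members were still below 0, and without all 6 libraries 33 of 36. An unadjusted p under 0.05 was found for 13 of 36 members (1961 of 16121 genes) and 8 of 36 (1325 of 15992 genes). With only the 2 groups fitted, 30 of 34 members were below 0, and 24 of 34 with those groups lacking saline replicates 2 and 3. Limma-voom called 1 member (Ifih1) and 1114 genes, and with a random block for neighbouring library numbers 0 members and 316 genes. DESeq2 called 4 of 33 members, adding Rsad2 (-0.60, adjusted p = 0.0465), and 1991 of 15059 genes. RLE size factors called 3 members and 1436 genes, a stricter filter 3 of 23 members and 1506 of 12160 genes, and no filter 2 of 37 members and 1050 of 28070 genes. Chosen after seeing the data, fits without saline replicates 2 and 3 called 0 members and 0 genes with the replicate block and 0 members and 2 genes by limma-voom. DESeq2 there called 0 of 10 members and 1135 of 9992 genes and gave Ifih1 and Gbp7 no adjusted p. Leaving out each library in turn gave 1 to 6 members and 299 to 2757 genes. The other comparisons gave 0 members under every alternative. Between the inhibitors, edgeR called 0 of all genes with 24 libraries and 1208 without saline replicates 2 and 3. Leaving out single libraries of the inhibitor groups gave 0 to 2315 genes. With 24 libraries 665 genes were called with the stricter filter, 429 by limma-voom and 1359 by DESeq2, which gave 11 members an adjusted p. Over single libraries left out, the log2 fold change in PICK1i was -1.03 to -0.66 for Gbp7 and -0.73 to -0.45 for Trim25, with the adjusted p of Ifih1 under the threshold each time. The cause of these differences was not tested.

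Replicate numbers did not pair the libraries (correlation of same-numbered deviations -0.19 to 0.15). With the replicate block 3 of 35 members and 1127 of 15667 genes passed in PICK1i against saline. Of the transcripts, 0 of 61 from members and 19 of all 37955 passed with the block, against 2 and 760 without it. Without saline replicates 2 and 3, in the fit with no block, 0 member transcripts and 0 of all 38710 transcripts passed. Between the inhibitors the block turned Ifitm3 to 0.0031 and Parp14 to 0.056.

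Some members described in full changed sign, and the values after the change follow. Without saline replicates 2 and 3, PSD-95i against saline gave 0.043 for Stat2, 0.046 for Trim25, 0.060 for Usp18, 0.0097 for Parp14 and 0.025 for Ifi27, and PICK1i against saline gave 0.046 for Parp14 and 0.037 for Ifi27. With only those 2 groups and without the same libraries, the values were 0.046 for Stat2, 0.050 for Trim25, 0.065 for Usp18, 0.013 for Parp14 and 0.025 for Ifi27 in PSD-95i, and 0.046 for Parp14 and 0.040 for Ifi27 in PICK1i. Without PICK1i replicates 1, 2, 5 and 6, PICK1i against saline gave -0.085 for Stat2, and PSD-95i against PICK1i gave 0.025 for Stat2, 0.037 for Irf1, 0.087 for Ifitm3, 0.060 for Parp14, 0.047 for B2m and 0.17 for Ifi27. Without all 6 libraries, PSD-95i against saline gave 0.043 for Stat2, 0.047 for Trim25, 0.060 for Usp18, 0.0091 for Parp14 and 0.022 for Ifi27, and PSD-95i against PICK1i gave 0.025 for Stat2, 0.040 for Irf1, 0.085 for Ifitm3, 0.061 for Parp14, 0.047 for B2m and 0.17 for Ifi27. Between the inhibitors, limma-voom gave 0.012 for Parp14 and 0.015 for Ifi27, and with library numbers as a block 0.011 for Parp14 and 0.015 for Ifi27. Over single libraries left out, the values between the inhibitors ran from -0.068 to 0.098 for Ifi27, -0.18 to 0.086 for Ifitm3, -0.060 to 0.10 for Irgm1, -0.12 to 0.066 for Parp14 and -0.085 to 0.22 for Usp18.

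Counts limit Isg15, with 3 to 42 per library, and Mx1, with at most 8.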
